A study of Mus musculus with 18 samples.

Results

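Keratins are the intermediate filament proteins of epithelial cells, and the genes followed here are all those whose symbol is Krt and a number, with or without a letter, which leaves out the keratin-associated proteins. The rule found 54 of 52958 gene symbols in dermal papilla (DP) libraries and 51 of 27933 in hair follicle stem cell (HFSC) libraries. The study asked how corticosterone, the adrenal stress hormone of mice, acts on the resting state of hair follicle stem cells. It holds 18 RNA-seq libraries in 9 groups of 2, all from female mice, with both cell types purified by flow cytometry. In the C57BL/6 wild-type mice, HFSC were taken after adrenalectomy with corticosterone feeding (ADX+CORT), after adrenalectomy (ADX) and after a sham operation (Sham), and DP cells after ADX and Sham. In the 129/C57BL/6 mice, HFSC and DP cells came from GR KO mice, which carried Pdgfra-CreER and floxed alleles of the glucocorticoid receptor gene (GR fl/fl), and from wild-type Control mice. All mice of these last groups, Controls included, had received tamoxifen intraperitoneally for 6 days. Pdgfra drives the Cre in mesenchymal cells such as fibroblasts and DP cells, not in the epithelium from which HFSC come. No label used here says whether the 2 libraries of a group came from separate mice, so the p-values measure only the spread between these libraries, which may be technical.

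A keratin filament is built from pairs of a type I (acidic) and a type II (basic to neutral) chain, and each layer of the skin makes its own pair. Basal keratinocytes make Krt5 and Krt14, suprabasal epidermis makes Krt1 and Krt10, and stem cells of the follicle bulge add Krt15. As hair grows, the companion layer turns on Krt75 and Krt6a, the inner root sheath Krt25, Krt27, Krt28 and Krt71, and the shaft its own hair keratins such as Krt31 and Krt35, while Krt16 and Krt17 are the keratins that injured or stressed epidermis turns on. In GRCm38, 27 of the members lie on chromosome 11, in the type I cluster, and 27 on chromosome 15, in the type II cluster together with Krt18.

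The promoters of Krt24, Krt5 and Krt79 are shown because HFSC results below turn on these genes. Krt24 and Krt5 had lower values in both ADX and GR KO HFSC, and Krt79 was called higher in GR KO HFSC. The promoters are the 250 bases before the gene start, from RefSeq on GRCm38.p6, whose table held 36 of the 54 genes. All 3 genes lie on the minus strand, and the sequences are written 5′ to 3′ along the gene. Capitals mark a match to a TATA-like motif, and Krt79 has none.
Krt24 promoter, chr11:99285263-99285512: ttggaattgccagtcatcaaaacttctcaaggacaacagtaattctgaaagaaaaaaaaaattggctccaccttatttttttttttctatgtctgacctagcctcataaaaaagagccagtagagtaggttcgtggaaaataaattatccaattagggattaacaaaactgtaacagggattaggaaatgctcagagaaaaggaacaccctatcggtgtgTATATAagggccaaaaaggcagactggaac
Krt5 promoter, chr15:101712906-101713155: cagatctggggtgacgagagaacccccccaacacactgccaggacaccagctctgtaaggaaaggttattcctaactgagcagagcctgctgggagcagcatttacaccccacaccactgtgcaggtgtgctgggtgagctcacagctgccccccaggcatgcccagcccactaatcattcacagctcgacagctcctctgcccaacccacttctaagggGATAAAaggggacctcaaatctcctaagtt
Krt79 promoter, chr15:101940325-101940574: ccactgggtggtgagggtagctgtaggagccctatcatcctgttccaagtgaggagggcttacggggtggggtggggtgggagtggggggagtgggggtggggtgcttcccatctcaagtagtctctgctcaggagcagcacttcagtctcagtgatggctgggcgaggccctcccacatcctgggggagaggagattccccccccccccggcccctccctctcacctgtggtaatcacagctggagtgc

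Searched on both strands, TATAAA stood in the promoters of 17 of the 36 keratin genes in the table (47.2%), against 12.4% of all 32851 promoters there. TATATA stood in 9 of the 36, against 5.2% of all, and GATAAA in 7 (19.4%), against 8.8%. These motifs overlap by letters, so a promoter can hold several. The matches in Krt24 and Krt5 begin 30 bases before the gene start. The full palindrome bound by the glucocorticoid receptor stood in 0 of the 36 and in 3 of all promoters. TGTTCT, the core of one arm of it, stood in 6 (16.7%), against 16.1%. A match describes letters only, and these windows do not reach beyond 250 bases.

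Library totals were 6194415 to 13941628 counts in DP and 14067139 to 33014976 in HFSC, and DP levels are not set against HFSC levels, because the deposited tables come from different counting tools. Levels are given as CPM, counts brought to a common library size. Nr3c1, the glucocorticoid receptor gene, had 136 and 111 CPM in GR KO DP, against 670 and 975 CPM in Control DP. In HFSC it had 243 and 170 CPM in GR KO and 257 and 338 CPM in Control. HFSC libraries held the bulge markers Cd34 (663 to 2527 CPM), Sox9 (345 to 639 CPM) and Lhx2 (154 to 481 CPM), and the DP marker Corin was at 0.334 CPM or less there. DP libraries held Crabp1 (494 to 3994 CPM), Lepr (353 to 960 CPM) and Corin (9.64 to 99.3 CPM), and the epithelial marker Epcam at 0.316 to 49.8 CPM. A summed list of 8 immune genes reached 2134 to 2615 CPM in the GR KO and Control HFSC libraries, against 42.2 to 156 CPM in the HFSC of the surgery groups. In HFSC, Cd74 (up to 2278 CPM) and Lyz2 (up to 431 CPM) carried most of it, and every other member was at 65.9 CPM or less. The list summed to 2438 CPM in GR KO DP replicate 1, against 29.1 CPM in replicate 2. The list's part in the results was not tested.

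In HFSC, keratins took 2.49 to 5.30% of all counts, and Krt15 alone took 46.5 to 65.5% of the keratin counts. Per kilobase of exon and averaged over the 10 libraries, Krt15 stood at 14045 CPM, Krt5 at 3025, Krt14 at 2560 and Krt17, a type I keratin of the outer root sheath and companion layer, at 1857. The suprabasal keratins followed at a distance, with Krt10 at 425, Krt79 at 370 and Krt77 at 208 CPM per kilobase. Krt15 was 3.43 to 5.21 times as high as Krt5 per kilobase in every library, so that order did not change between libraries. Type I chains together outweighed type II chains 3.67 to 5.84 times per kilobase. Hair shaft keratins summed to 18.4 to 58.6 CPM in HFSC, and the most abundant of them was Krt32, a keratin of the hair cuticle.

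The share of keratins was 4.45 and 4.55% of counts in ADX+CORT HFSC, 2.49 and 3.43% in ADX HFSC, and 4.37 and 4.93% in Sham HFSC. It was 3.34 and 4.54% in GR KO HFSC, against 4.93 and 5.30% in Control HFSC. The ADX libraries lay below all ADX+CORT and Sham libraries, and the GR KO libraries below the Control libraries. The makeup differed too. Krt15 made up 62.1 and 59.7% of keratin counts in ADX+CORT, 46.5 and 55.1% in ADX, and 62.0 and 65.5% in Sham, and 47.2 and 46.9% in GR KO against 65.0 and 62.2% in Control. With 2 libraries against 2, an exact two-sided permutation test cannot give a p under 0.333, so these shares are given without one. In bulk RNA, fewer cells of a kind and less RNA per cell cannot be told apart.

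**Figure D1:**
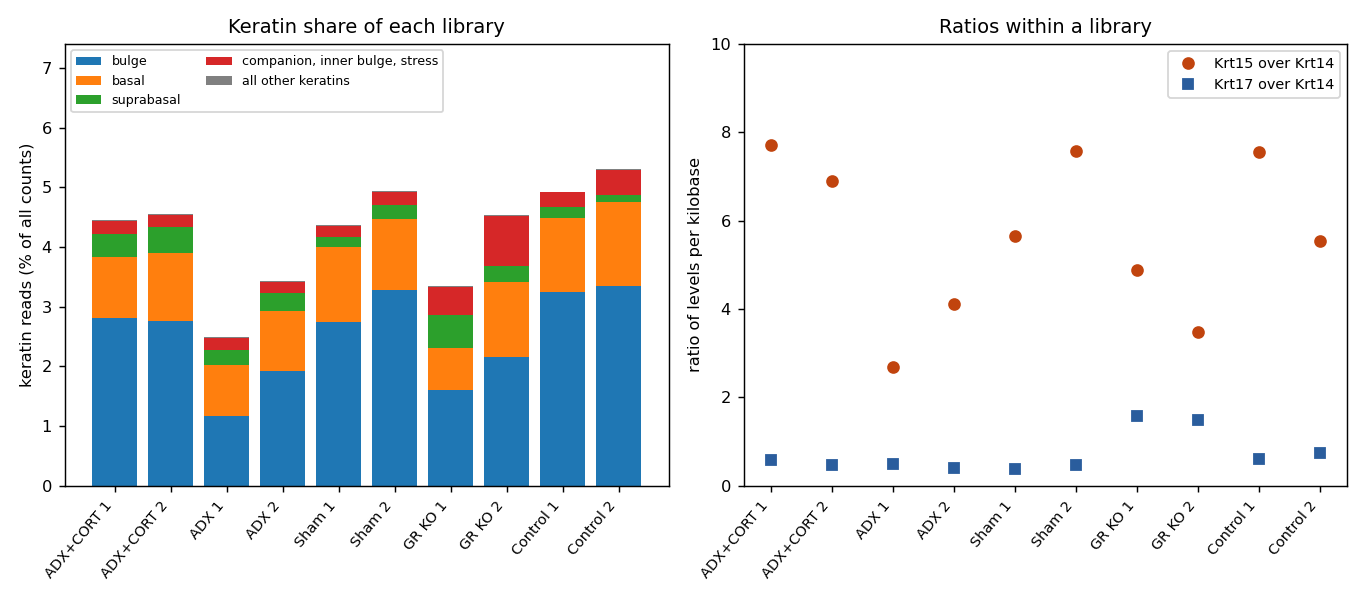
Keratin counts as a percent of all counts in each HFSC library, stacked by role (left), and the ratios of Krt15 and of Krt17 to Krt14 per kilobase in the same libraries (right). The bulge keratins form the largest block in every library, at 47.1 to 66.3% of keratin counts, and Krt17 exceeds Krt14 per kilobase in the 2 GR KO libraries.

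Adrenalectomy was compared with the sham operation in HFSC to see what the loss of adrenal hormones does to the stem cells. The edgeR quasi-likelihood test was run on 15231 genes, and 36 of the 51 keratins had enough counts to be tested. Of these 36, 1 was called higher in ADX (Benjamini-Hochberg adjusted p under 0.05 over all genes tested) and 0 lower, against 0.282% of all genes called higher and 0.0131% lower. By sign, 25 keratins had higher values in ADX and 11 lower, with a median log2 difference of 0.41, while the median over all genes was 0.0. Of all genes tested, 49.6% had higher values. Krt33a and Krt83 were at 0 in both Sham libraries and passed the filter through libraries where they were high, so the signs are described only. In 9 keratins both ADX libraries lay above both Sham libraries and in 7 both lay below, which is near the 25.5% and 23.9% of all genes tested that did so.

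The keratin that rose was Krt35, a type I hair keratin that is among the first to be made in the matrix and precortex of the growing shaft. It had 138 and 76 counts in the ADX HFSC libraries, against 0 and 1 counts in the Sham libraries. That is 9.70 and 4.44 CPM in ADX, against 0.0 and 0.0706 CPM in Sham. Every ADX library was above every Sham library, and a count ratio of 213 had a 95% interval of 37.8 to 8456, which covers counting error only. The fitted log2 difference was 7.49 ± 1.37 (SE, n = 2 per group, edgeR adjusted p = 0.0455), a value that depends on how counts near 0 are handled. The call was lost without Sham replicate 1 (adjusted p = 0.261), without Sham replicate 2 (adjusted p = 0.134) and without ADX replicate 1 (adjusted p = 0.261), with log2 differences of 6.52, 10.10 and 6.82. It was also lost with the replicate number as a block (adjusted p = 0.0693). It held without ADX replicate 2 (7.96, adjusted p = 0.0283), a fit in which 6 keratins were called, Krt35, Krt25 and Krt71 higher and Krt15, Krt24 and Krt80 lower, among 235 of 16130 genes. Of the 2441 stretches of 50 bases in Krt35 transcripts, 2.7% also occur in another keratin.

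Of the bulge and basal keratins, Krt15, Krt24 and Krt5 had lower values in ADX. Krt15 had 11435 and 19402 CPM in ADX HFSC, against 26672 and 32576 CPM in Sham HFSC. Both ADX libraries lay below both Sham libraries, with a log2 difference of −0.94 ± 0.29 (SE) that did not pass (adjusted p = 0.149). Krt24, a type I keratin enriched in bulge cells, had 134 and 337 CPM in ADX, against 402 and 429 CPM in Sham (−0.82 ± 0.34, adjusted p = 0.272). Krt5 had 4136 and 5640 CPM in ADX, against 7641 and 7748 CPM in Sham (−0.66 ± 0.28, adjusted p = 0.292). Its partner Krt14 had 4244 and 4680 CPM in ADX and 4692 and 4278 CPM in Sham, values that overlap (−0.01 ± 0.32, adjusted p = 1.0). Krt19, a type I keratin also known from the bulge, was scarce and overlapped, at 12.0 and 6.37 CPM in ADX and 4.23 and 9.18 CPM in Sham (0.45 ± 0.61, adjusted p = 0.785). Krt14 stood at 1.28 and 1.034 times Krt5 per kilobase in ADX, 0.655 and 0.657 times in ADX+CORT and 0.765 and 0.688 times in Sham. Beside these values, a list of 14 bulge stem cell genes without keratins summed to 3192 and 5041 CPM in ADX, 6973 and 6969 CPM in ADX+CORT and 9817 and 9228 CPM in Sham. Ctgf alone gave 824 and 1665 CPM of this in ADX, against 4466 and 4676 CPM in Sham. Of the 13 members tested, 2 were higher and 11 lower in ADX, and the 1 called, Timp3, was higher (1.37 ± 0.24, adjusted p = 0.0393). The list's part in the keratin values was not tested.

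**Figure D2:**
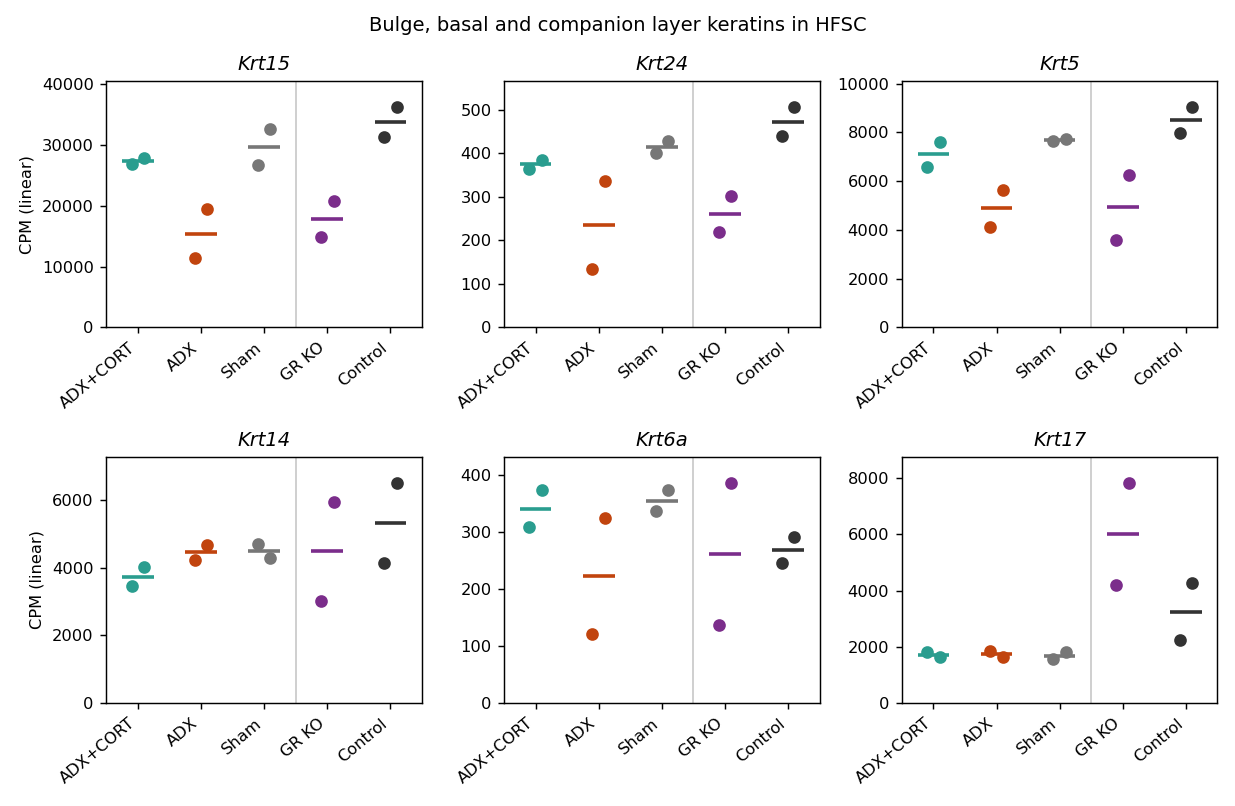
CPM on linear axes from 0 of bulge (Krt15, Krt24), basal (Krt5, Krt14) and companion or outer root sheath keratins (Krt6a, Krt17) in the 5 HFSC groups, with a point per library and a bar at the mean of 2. Krt15, Krt24 and Krt5 are lower in ADX than in Sham and lower in GR KO than in Control without overlap, while Krt14 overlaps in both pairs.

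Among the keratins of stressed epidermis and the companion layer, Krt16 had 16.8 and 22.5 CPM in ADX HFSC, against 3.76 and 5.23 CPM in Sham HFSC. Both ADX libraries were above both Sham libraries, and the log2 difference of 2.13 ± 0.45 (SE) came close to the threshold without passing it (adjusted p = 0.0701). Krt16 shares 12.4% of its 50-base stretches with Krt14, whose level is far higher, so its counts are uncertain. Krt17, which partners with Krt6a, did not differ beyond the spread, at 1834 and 1624 CPM in ADX and 1564 and 1808 CPM in Sham. Krt6a had 121 and 325 CPM in ADX, against 337 and 374 CPM in Sham (−0.67 ± 0.45, adjusted p = 0.503), and 44.8% of its stretches also occur in another keratin, most often Krt6b.

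The inner root sheath keratins were high in 1 ADX library and low in the other. Krt71 had 48.9 and 6.49 CPM in ADX HFSC, against 10.6 and 4.59 CPM in Sham HFSC. Krt25 had 18.6 and 0.526 CPM in ADX, against 1.116 and 0.847 CPM in Sham, and Krt27 had 12.8 and 0.585 CPM in ADX, against 0.0 and 1.13 CPM in Sham. Of the 5 members tested, 0 passed. Without ADX replicate 1, the difference turned to −0.89 for Krt25 and to −0.23 for Krt71. Krt35 did not share this pattern, since it was high in both ADX libraries.

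Suprabasal keratins gave 5 higher and 2 lower values in ADX, and 0 passed. Krt1 had 571 and 665 CPM in ADX HFSC, against 251 and 321 CPM in Sham HFSC (1.11 ± 0.48, adjusted p = 0.293). Its partner Krt10 had 987 and 1118 CPM in ADX, against 580 and 1030 CPM in Sham, which overlap. Krt79, a type II keratin of the infundibulum and sebaceous duct in mouse, had 194 and 468 CPM in ADX, against 90.4 and 211 CPM in Sham (1.14 ± 0.43, adjusted p = 0.230). In the hair shaft group, Krt33a, a cortex keratin, had 12 and 44 counts in ADX and 0 in both Sham libraries. Set against a floor of 3 counts over the 2 Sham libraries, it was 18.6-fold higher in ADX (adjusted p = 0.207). That value leaves out the counting error of ADX. Krt33a also had 12 and 64 counts in the Control HFSC libraries, and 17.8% of its stretches occur in other keratins.

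Feeding corticosterone to adrenalectomized mice tested whether the hormone alone reverses what surgery does. ADX+CORT is set here against ADX and against Sham, 2 comparisons that share libraries with each other and with ADX against Sham. Of the 36 keratins, 0 were called in ADX+CORT against ADX, as was 0% of all 15231 genes by edgeR, and 14 keratins had an unadjusted p under 0.05, among 2941 genes. DESeq2 called 8 of the 36 keratins and 1278 of the 15231 genes in this comparison. Both ADX+CORT libraries lay above both ADX libraries for 9 keratins and below for 10, against 26.7% and 25.8% of all genes. Against Sham, edgeR called 0 keratins and 0% of all genes, 6 keratins and 927 genes had an unadjusted p under 0.05, and DESeq2 called 0 keratins and 53 genes.

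Krt35 had 1 and 0 counts in ADX+CORT HFSC, against 138 and 76 counts in ADX HFSC. Both ADX+CORT libraries were at or near 0, as were those of Sham, and the ratio of counts was 0.00393 (95% counting interval 9.9e-05 to 0.0221, log2 difference −7.73 ± 1.37, adjusted p = 0.0573). Krt15 had 26924 and 27878 CPM in ADX+CORT, against 11435 and 19402 CPM in ADX (0.83 ± 0.29, adjusted p = 0.145). Against Sham its log2 difference was −0.11 ± 0.29 (adjusted p = 0.998), with overlapping libraries. Krt24 had 365 and 386 CPM and Krt5 6601 and 7607 CPM in ADX+CORT, above both ADX libraries in each case (0.67 ± 0.34, adjusted p = 0.300, and 0.54 ± 0.28, adjusted p = 0.321). Krt16 had 5.20 and 11.1 CPM in ADX+CORT, below both ADX libraries (−1.27 ± 0.43, adjusted p = 0.135). Krt71 had 4.08 and 3.75 CPM in ADX+CORT, against 48.9 and 6.49 CPM in ADX (−2.82 ± 0.76, adjusted p = 0.0744).

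Some keratins stood higher in ADX+CORT than in both other surgery groups. Krt77, a type II keratin of suprabasal epidermis, had 1170 and 1401 CPM in ADX+CORT, 642 and 589 CPM in ADX, and 428 and 663 CPM in Sham. Its log2 difference was 1.06 ± 0.40 against ADX (adjusted p = 0.172) and 1.24 ± 0.41 against Sham (adjusted p = 0.7). Krt78, another type II suprabasal keratin, had 59.5 and 97.0 CPM in ADX+CORT, 19.8 and 19.7 CPM in ADX, and 20.6 and 42.7 CPM in Sham (against ADX 1.99 ± 0.50, adjusted p = 0.070). Krt10 had 1362 and 1757 CPM in ADX+CORT, above both ADX and both Sham libraries (against Sham 0.96 ± 0.42, adjusted p = 0.806). Krt23, a type I keratin of simple and glandular epithelia, had 81.7 and 74.3 CPM in ADX+CORT, 15.3 and 35.0 CPM in ADX, and 38.6 and 41.8 CPM in Sham (against ADX 1.63 ± 0.44, adjusted p = 0.0748). In ADX+CORT against Sham, all 7 suprabasal keratins had higher values, 6 of them without overlap, while 21.5% of all genes tested had both libraries above. Without ADX replicate 2, 7 keratins were called in ADX+CORT against ADX, with Krt15, Krt24, Krt23 and Krt80 higher and Krt35, Krt25 and Krt71 lower, among 549 of 16130 genes. A list of 20 epidermal envelope genes summed to 9509 and 12953 CPM in ADX+CORT, 11090.3 and 13393 CPM in ADX, and 8542 and 9996 CPM in Sham, and its part in these values was not tested.

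**Figure D3:**
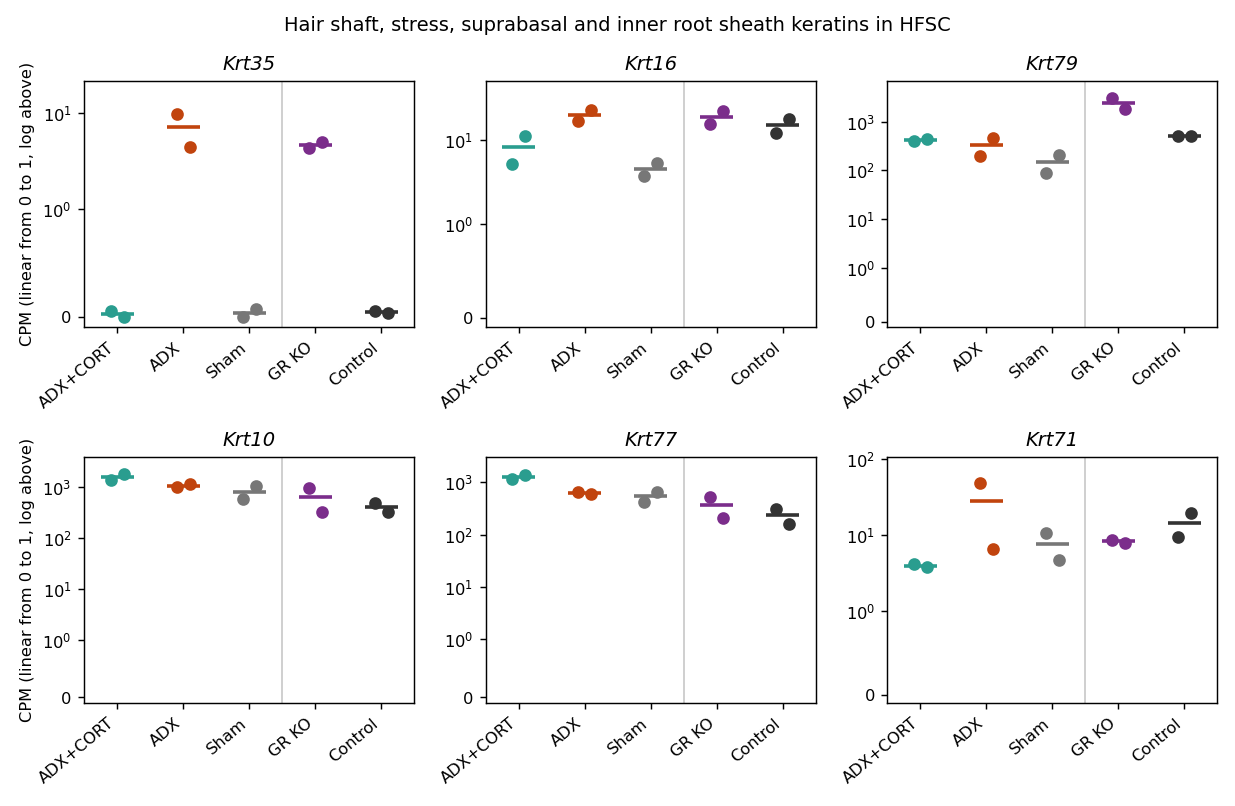
CPM of Krt35 (hair shaft), Krt16 (stress), Krt79, Krt10 and Krt77 (suprabasal) and Krt71 (inner root sheath) in the 5 HFSC groups, on axes linear from 0 to 1 and logarithmic above, with a point per library and a bar at the mean of 2. Krt35 lies between 4.37 and 9.70 CPM in the ADX and GR KO libraries and at 0.0706 CPM or less in the other 6, and Krt79 reaches 1848 and 3116 CPM in GR KO.

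The GR KO comparison asked what the loss of the receptor in Pdgfra-expressing cells does to HFSC. Of the 36 keratins tested, 2 were called higher in GR KO HFSC and 0 lower, against 0.67% of all 15231 genes called higher and 0.315% lower. Positive log2 differences were found for 20 keratins and negative ones for 16, with a median of 0.18 against 0.005 over all genes. Of all genes tested, 50.4% had positive ones. Krt83 was at 0 in both Control libraries and passed the filter through other libraries, so these signs too are described only. Both GR KO libraries were above both Control libraries for 7 keratins and below for 8, against 19.3% and 19.1% of all genes.

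Krt35 had 96 and 90 counts in the GR KO HFSC libraries, against 1 and 1 counts in the Control libraries. Every GR KO library was above every Control library, with a count ratio of 116 (95% counting interval 31.5 to 961) and a log2 difference of 6.63 ± 1.27 (SE, n = 2 per group, edgeR adjusted p = 0.0367). Krt79 had 3116 and 1848 CPM in GR KO HFSC, against 499 and 501 CPM in Control HFSC. It rose by a log2 difference of 2.31 ± 0.44 (SE, edgeR adjusted p = 0.0367). In CPM, though not on the log2 scale of the test, the 2 GR KO libraries differed by about as much as the lower of them stood above Control. The Control libraries nearly coincided. Without Control replicate 1 neither gene passed (adjusted p = 0.0997 for Krt35 and 0.113 for Krt79), nor without Control replicate 2 (adjusted p = 0.223 for Krt35 and 0.212 for Krt79). Without GR KO replicate 1, Krt35 passed (adjusted p = 0.0293) and Krt79 did not (1.89, adjusted p = 0.0508), while Krt75 was called as well, among 336 of 16022 genes. Without GR KO replicate 2, Krt79 passed (2.64, adjusted p = 0.0232) and Krt35 did not (adjusted p = 0.076), among 57 of 16085 genes called. A list of 11 sebaceous gland genes, a tissue next to cells that express Krt79, overlapped between these groups. It summed to 615 and 246 CPM in GR KO, against 345 and 464 CPM in Control. In the surgery groups the list summed to 168 and 222 CPM in ADX, 96.05 and 281 CPM in ADX+CORT, and 109 and 99.1 CPM in Sham. Both ADX libraries lay above both Sham libraries on it, while ADX+CORT overlapped with each of these groups. The list's part in the Krt79 values was not tested.

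Krt15, Krt24 and Krt5 had lower values in GR KO. Krt15 had 14838 and 20855 CPM in GR KO HFSC, against 31398 and 36196 CPM in Control HFSC (−0.92 ± 0.29, adjusted p = 0.173). Krt24 had 219 and 303 CPM in GR KO, against 439 and 506 CPM in Control (−0.86 ± 0.34, adjusted p = 0.293), and Krt5 had 3577 and 6269 CPM in GR KO, against 7997 and 9030 CPM in Control (−0.79 ± 0.28, adjusted p = 0.239). None of these 3 pairs of groups overlapped. Krt14 overlapped, with 3019 and 5954 CPM in GR KO and 4136 and 6508 CPM in Control. Per kilobase, Krt14 was 1.05 and 1.18 times Krt5 in GR KO, against 0.644 and 0.898 times in Control. Cd34, a surface marker of bulge cells, fell to 784 and 663 CPM in GR KO, against 1923 and 2142 CPM in Control (−1.49 ± 0.29, adjusted p = 0.0384), and the list of 14 bulge stem cell genes summed to 3976 and 3985 CPM in GR KO, against 7430 and 7677 CPM in Control. Cd34 and Ctgf, with 1557 and 741 CPM in GR KO against 3146 and 3498 CPM in Control, carry much of that sum. Of the 13 members tested, 5 were higher and 8 lower in GR KO, with a median log2 difference of −0.15. The list's part in the keratin values was not tested. Krt19 overlapped, at 3.50 and 6.07 CPM in GR KO and 3.12 and 8.35 CPM in Control.

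Krt17 had 4193 and 7827 CPM in GR KO HFSC and 2236 and 4278 CPM in Control HFSC, so the lower GR KO library lay below the higher Control library (0.88 ± 0.34, adjusted p = 0.268). Relative to Krt14 in the same library and per kilobase, however, Krt17 stood at 1.57 and 1.49 in GR KO, against 0.613 and 0.745 in Control, and at 0.378 to 0.590 in the 6 libraries of the surgery groups. Krt75, a companion layer keratin, had 7.10 and 35.8 CPM in GR KO, against 4.50 and 7.32 CPM in Control (1.85 ± 0.60, adjusted p = 0.182). Krt7, a type II keratin of simple and glandular epithelia, had 10.7 and 6.41 CPM in GR KO, against 3.27 and 2.73 CPM in Control (1.51 ± 0.62, adjusted p = 0.309). Krt10 overlapped, with 943 and 325 CPM in GR KO and 477 and 324 CPM in Control, and so did Krt1. Krt32 overlapped as well, with 49.6 and 25.6 CPM in GR KO and 24.6 and 41.5 CPM in Control.

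**Figure D4:**
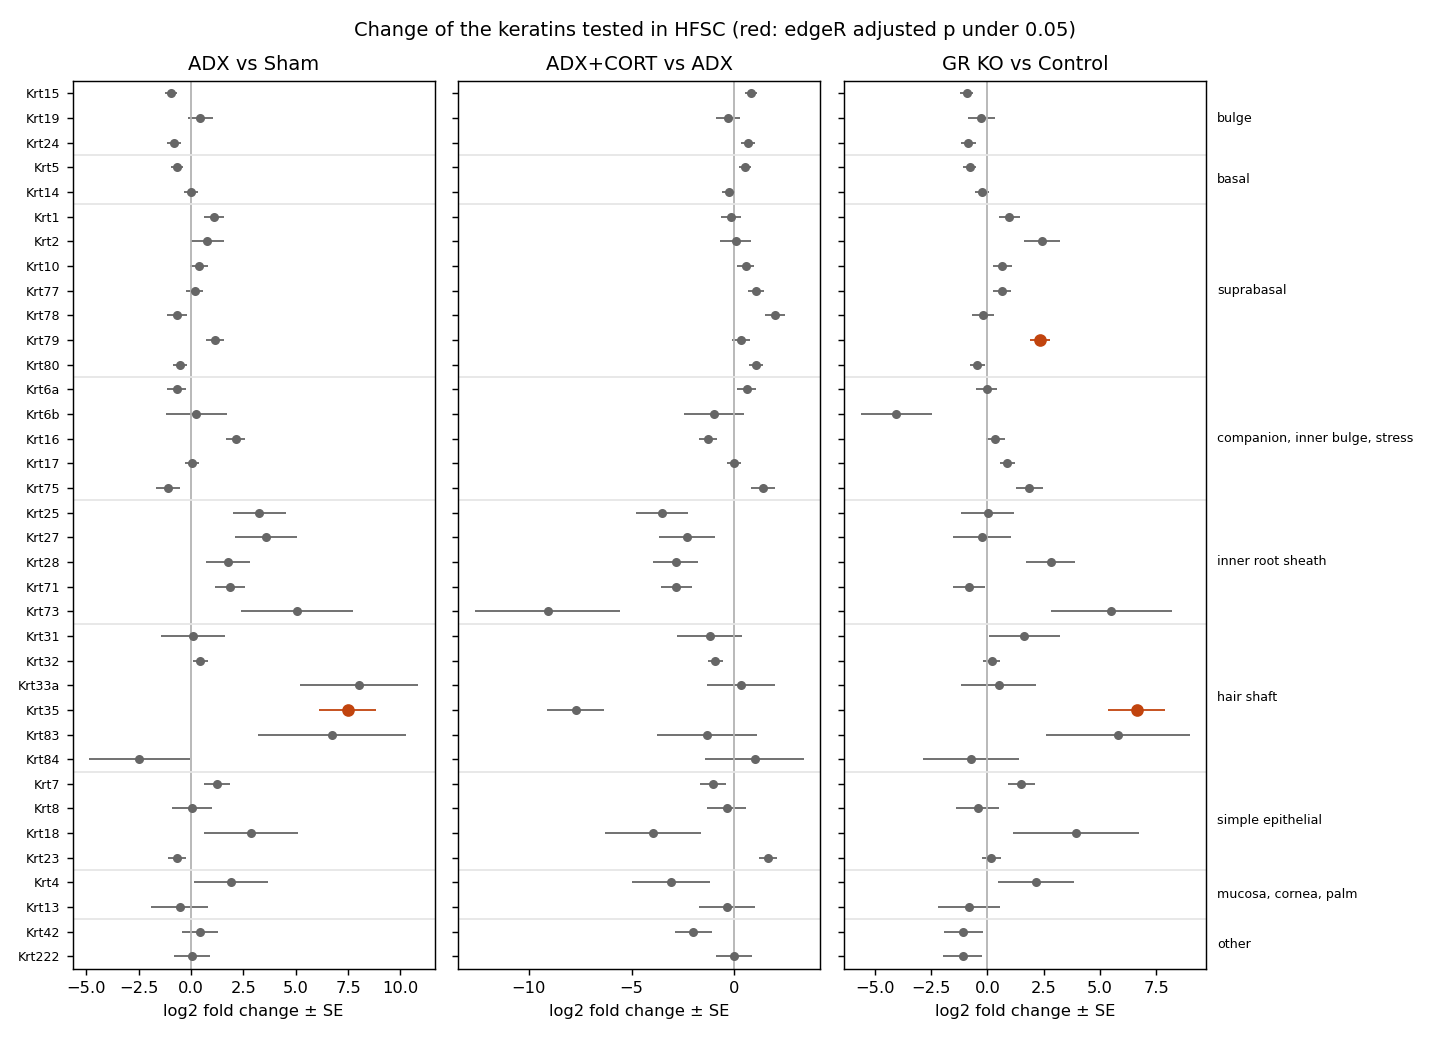
Log2 fold change with its standard error of the 36 keratins tested in HFSC, grouped by role, for ADX against Sham, ADX+CORT against ADX and GR KO against Control. The first 2 panels share the ADX libraries, and fitted values of genes at or near 0 in a group (Krt33a, Krt35, Krt73 and Krt83 among them) depend on how such counts are handled. Krt35 is called in 2 panels and Krt79 in 1.

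Adrenalectomy and receptor loss share no library, and the difference between their effects was tested. In HFSC it called 0 keratins and 0% of all genes by edgeR (1610 genes at an unadjusted p under 0.05), and DESeq2 called 0 keratins and 121 genes. Krt75 had the smallest p among the keratins, with a difference of 2.96 ± 0.84 in log2, GR KO minus ADX effect (adjusted p = 0.376). Krt16 followed at −1.79 ± 0.61 (adjusted p = 0.378), with 15.5 and 22.0 CPM in GR KO HFSC and 12.0 and 17.6 CPM in Control HFSC. In DP the same test called 0 keratins by edgeR, against 0.477% of all 23463 genes tested, 0.349% higher and 0.128% lower. DESeq2 called 1 keratin, Krt78, and 1234 of the 23463 genes. Krt75 was called in HFSC without GR KO replicate 1, among 20 of 16022 genes. In DP, 4 keratins (Krt1, Krt10, Krt77 and Krt78) were called without GR KO replicate 2, among 221 of 26850 genes, and Krt17 without GR KO replicate 1, among 130 of 26812 genes.

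In DP, a mesenchymal cell type that is not known for making keratins, keratin counts were 0.00618 to 0.520% of all counts. Suprabasal keratins made up 46.8 to 87.3% of them. Krt10 had the highest level per kilobase of all keratins in each library but Control replicate 1, where Krt17 and Krt79 stood above it. The lowest share was that of GR KO replicate 2, with 861 estimated counts, and the highest that of Sham replicate 2, with 58954. Per kilobase, Krt10 ranged over the 8 libraries between 42.3 CPM in GR KO replicate 2 and 1209 CPM in Sham replicate 2. Krt77 ranged between 2.00 and 537 CPM in the same libraries. Krt17 had 393 CPM per kilobase in Control replicate 1 and 0.0 to 70.0 CPM in the other libraries. Simple epithelial keratins, which some non-epithelial cells make at low levels, were low here, with Krt8 at 0.324 to 11.5 CPM and its partner Krt18 at 0.0 to 14.8 CPM. Krt12, known from the cornea, and Krt20, known from gut epithelium and Merkel cells, stayed at or below 5.54 CPM.

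Of the 33 keratins tested in DP, 0 were called in ADX against Sham, against 0.017% of all 23463 genes (0.0128% higher and 0.00426% lower). An unadjusted p under 0.05 was found for 7 keratins and 2737 genes, and DESeq2 called 0 keratins. All 7 suprabasal keratins had lower values in ADX. Krt10 had 207 and 124 CPM in ADX DP, against 488 and 1990 CPM in Sham DP (−2.90 ± 0.92, adjusted p = 0.301). Krt1 had 21.5 and 16.7 CPM in ADX, against 83.8 and 300 CPM in Sham (−3.33 ± 1.08, adjusted p = 0.303), and Krt77 had 159 and 60.5 CPM in ADX, against 425 and 1572 CPM in Sham (−3.18 ± 1.19, adjusted p = 0.346). In each, both ADX libraries lay below both Sham libraries, as they did for 11 of the 33 keratins and 19.4% of all genes. Epithelial genes other than keratins also had lower sums in ADX. A list of 16 epithelial genes summed to 234 and 166 CPM in ADX, against 398 and 947 CPM in Sham, and the list of 20 epidermal envelope genes to 387 and 215 CPM in ADX, against 890 and 2734 CPM in Sham. The part of epithelial cells in these keratin values was not tested.

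Hair shaft keratins were scarce in DP. Of 15 members, 8 passed the filter on low counts, several of them through the libraries where they were high while at 0 in the sham-operated group, so their direction as a group is not counted. Both ADX libraries lay above both Sham libraries for 8 of all 33 keratins tested, against 23.9% of all genes. Krt35 had 82 and 9 counts in the ADX DP libraries, against 3 and 3 counts in the Sham libraries (4.57 ± 1.76, adjusted p = 0.357). Krt83, a type II cortex keratin, had 8 and 5 counts in ADX and 0 in both Sham libraries. That is 6.58-fold higher against a floor of 3 counts over the group, a value that leaves out the counting error of ADX. In Krt35, most of these counts came from ADX replicate 1.

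In GR KO against Control DP, 0 of the 33 keratins were called, against 1.54% of all genes (0.767% higher and 0.771% lower). An unadjusted p under 0.05 was found for 7 keratins and 3574 genes, and DESeq2 called 2 of 33 keratins, Krt23 and Krt79, and 1554 of 23463 genes, which is a similar share. Both GR KO libraries lay above both Control libraries for 4 keratins and below for 7, against 31.6% and 20.0% of all genes. Krt79 had 26.7 and 4.59 CPM in GR KO DP, against 527 and 71.9 CPM in Control DP (−4.26 ± 0.999, adjusted p = 0.0699). Krt17 had 24.5 and 0.0 CPM in GR KO, against 610 and 109 CPM in Control (−4.88 ± 1.49, adjusted p = 0.145). Both genes were lower in each GR KO library than in each Control library. Krt10 overlapped, with 331 and 35.0 CPM in GR KO and 129 and 191 CPM in Control, and so did Krt14, with 145 and 0.395 CPM in GR KO and 104 and 35.7 CPM in Control. GR KO replicate 2 was near 0 for most epidermal keratins, and without GR KO replicate 1, 6 keratins were called lower in GR KO (Krt5, Krt14, Krt17, Krt23, Krt77 and Krt79), among 192 of 26812 genes called. Beside this, the epidermal envelope list summed to 356 and 35.8 CPM in GR KO, against 2040 and 919 CPM in Control. Cst6 alone gave 1242 and 250 CPM of the Control sums, though all 17 envelope genes tested had lower values in GR KO. The list of 16 epithelial genes overlapped, at 362 and 142 CPM in GR KO and 404 and 207 CPM in Control, with 4 higher and 12 lower. A list of 12 dermal fibroblast genes summed to 68777 and 78987 CPM in GR KO, against 28481 and 19978 CPM in Control. The part of these lists in the keratin values was not tested.

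The hair shaft keratin counts of GR KO DP came nearly all from replicate 1, and the 8 members tested again include genes at 0 in both Control libraries that passed the filter through the libraries where they were high. Their summed level was 42.3 and 0.395 CPM in GR KO, against 1.02 and 0.371 CPM in Control. Krt83 had 95 and 3 counts in the GR KO DP libraries and 0 in both Control libraries (adjusted p = 0.151). That is 30.7-fold higher against a floor of 3 counts over the group, a value that leaves out the counting error of GR KO. Krt31, a type I cortex keratin, had 111 and 0 counts in GR KO, and Krt33a 132 and 0 counts, with 0 in both Control libraries. Krt35 had 61 and 1 counts in GR KO, against 2 and 2 counts in Control (3.79 ± 1.75, adjusted p = 0.344). These genes share part of their sequence with other keratins, with 28.1% of the 50-base stretches of Krt31 and 22.1% of those of Krt83 found in another keratin.

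**Figure D5:**
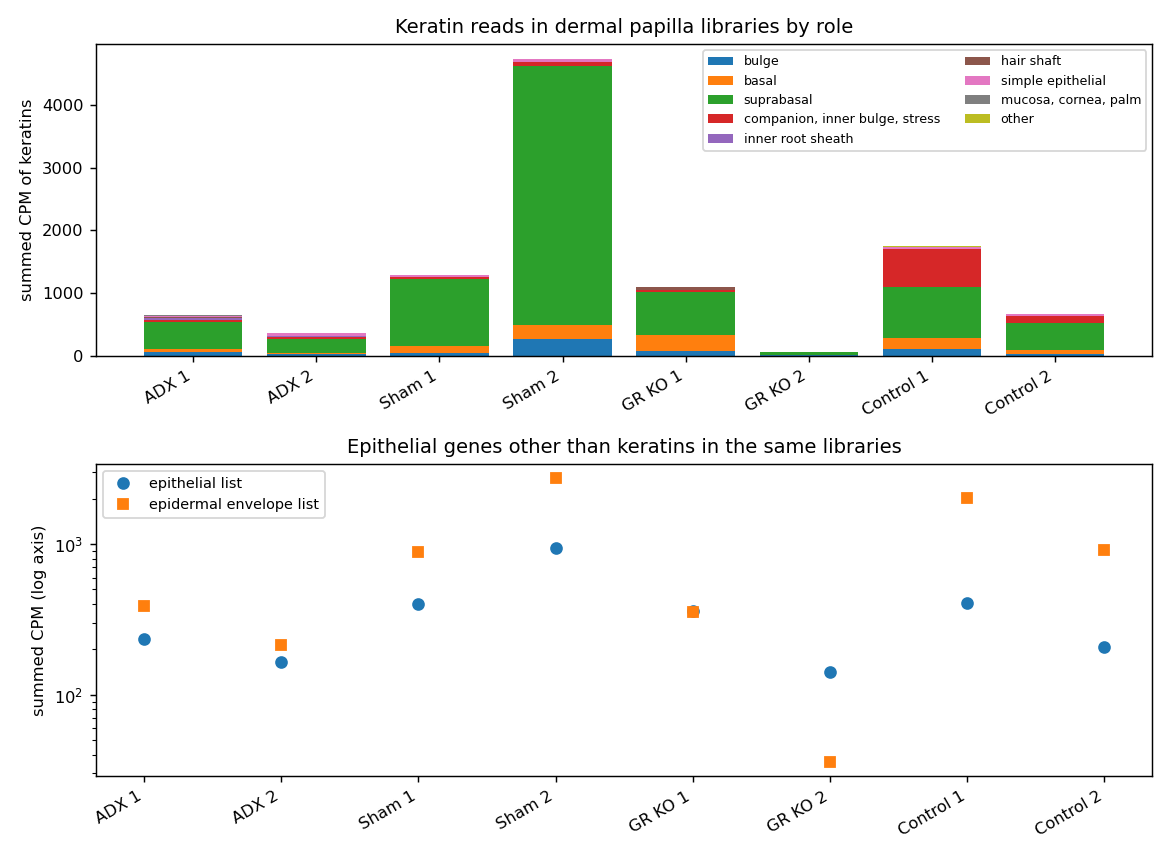
Summed CPM of keratins by role in each DP library (top) and summed CPM of 2 lists of epithelial genes other than keratins on a logarithmic axis (bottom). Suprabasal keratins form the largest block in each library, and the envelope list is lowest, at 35.8 CPM, in the library with the fewest keratin counts, GR KO replicate 2.

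Keratins work with desmosome proteins that anchor the filaments, and in the shaft with keratin-associated proteins. Of 22 desmosome and linker genes, 21 were tested in each cell type. Over all comparisons edgeR called 1, in GR KO against Control DP, where 1.54% of all genes were called. That was Ppl, encoding periplakin, a plakin of the desmosome and cornified envelope, which fell to 35.5 and 30.5 CPM in GR KO DP, against 93.6 and 87.7 CPM in Control DP (−1.46 ± 0.27, adjusted p = 0.0373). In ADX DP it had 35.6 and 34.7 CPM, against 93.1 and 117 CPM in Sham DP (−1.58 ± 0.27, adjusted p = 0.139). Of 57 keratin-associated protein genes found in HFSC, 4 had enough counts to be tested and 0 were called. Their summed level was 32.1 and 101 CPM in ADX HFSC against 62.5 and 65.2 CPM in Sham HFSC, and 21.0 and 20.0 CPM in GR KO HFSC against 32.5 and 60.5 CPM in Control HFSC. The ADX and Sham sums overlap, and the GR KO sums lie below those of Control. Krtap17-1 alone gave most of these last sums, 19.5 and 17.5 CPM in GR KO and 30.8 and 58.9 CPM in Control (adjusted p = 0.261). Of the 4 genes tested, 2 were higher and 2 lower in GR KO.

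Of 15 regulators and products of the hair program, 13 were tested in HFSC. In each of the ADX and GR KO comparisons 1 was called, against 0.295% and 0.985% of all genes. Both times this was Cux1, which encodes a homeodomain transcription factor of the inner root sheath and matrix. By sign, 9 of the 13 were higher and 4 lower in ADX, and 8 were higher and 5 lower in GR KO. Cux1 had 60.0 and 41.2 CPM in ADX HFSC, against 16.5 and 13.1 CPM in Sham HFSC (1.77 ± 0.33, adjusted p = 0.0475). It had 64.2 and 84.1 CPM in GR KO HFSC, against 18.3 and 11.7 CPM in Control HFSC (2.31 ± 0.33, adjusted p = 0.0281). Cux1 and Krt35 were each called higher in both comparisons. The summed hair program list did not follow Krt35 over the surgery groups. It stood at 488 and 533 CPM in ADX+CORT, 474 and 426 CPM in ADX, and 364 and 332 CPM in Sham. A link between Cux1 and Krt35 was not tested. Of the 20 envelope genes, 3 were called higher in ADX HFSC, against 0.282% of all genes. In GR KO HFSC 2 were called higher and 1 lower, against 0.67% and 0.315% of all genes. In GR KO DP 3 of 17 tested were called lower, against 0.771% of all genes. Cst6, named after its values were seen, which encodes the protease inhibitor cystatin M/E of the upper follicle and epidermis, was called higher in GR KO HFSC, at 4209 and 2308 CPM against 728 and 1097 CPM in Control HFSC (1.84 ± 0.33, adjusted p = 0.0327). It was called lower in GR KO DP, at 18.8 and 2.13 CPM against 1242 and 250 CPM in Control DP (−6.16 ± 1.07, adjusted p = 0.0344). These are the same directions as the Krt79 values in the 2 cell types. Lor, another envelope gene, was called lower in both cell types. In HFSC it had 8.10 and 7.24 CPM in GR KO, against 17.4 and 39.0 CPM in Control (−1.88 ± 0.37, adjusted p = 0.0384). In DP it had 0.729 and 0.316 CPM in GR KO, against 43.5 and 22.4 CPM in Control (−5.95 ± 0.68, adjusted p = 0.0165). Of the 20 envelope genes tested in GR KO HFSC, 10 were higher and 10 lower.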

How the data were processed

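Libraries were prepared with the SMART-Seq v4 and Nextera XT kits, per the labels' protocols, and do not mark strand. For DP the authors deposited estimated counts for each transcript. The submitters' processing notes name Salmon and mm10. They were summed to gene symbols through GENCODE M21 (134967 transcripts, 150 unmatched, with at most 0.0752% of a library's counts) and rounded. The HFSC tables hold raw gene counts from featureCounts 1.6.1, per the file headers, with a mapping quality minimum of 30 and no strand option. Trim Galore 0.4.1 and STAR 2.5.3 are also in the notes. In 2 of these files 27 gene names had become dates and were restored by coordinates. The notes also list DESeq2 1.22.2.

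DP and HFSC libraries were modelled separately, all groups of a cell type together (edgeR 4.0.16, R 4.3.3, TMM scaling, default filter on low counts, quasi-likelihood test, Benjamini-Hochberg over all genes, threshold 0.05). The filter kept 23463 DP and 15231 HFSC genes, 33 and 36 of them keratins. The code was tested on simulated data. CPM values use the TMM library sizes. Reads carry no molecular identifiers, so count intervals and floors of 3 counts cover counting error only. Replicates of every group differed by more than sampling noise. Alternatives were a replicate block, no filter, DESeq2 1.42.0, median-of-ratios scaling, keratins left out of the scaling, only the groups compared, and each library left out. The keratins and all lists were chosen with earlier results of these data known. Named keratins are those called, the 2 of smallest p per comparison and up to 4 of highest level per role, and others named were chosen after their values were seen.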

Additional observations from a re-analysis of the deposited data

Results flagged for a closer look

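Values of 5 keratins ran in opposite directions without overlap in 2 comparisons. In the single comparisons used, 19.3 to 31.6% of all genes tested lay above without overlap and 19.1 to 23.9% below. The share of all genes that ran in opposite directions in 2 comparisons was not computed, so the number of keratins is not read as a result. Krt1 had a log2 difference of −3.33 in ADX against Sham DP and of 1.11 in ADX against Sham HFSC. Krt75 had 1.44 in ADX against Sham DP and −1.10 in ADX against Sham HFSC. Krt7 had −1.44 in GR KO against Control DP and 1.51 in GR KO against Control HFSC, and Krt79 had −4.26 in GR KO against Control DP and 2.31 in GR KO against Control HFSC. The difference between the cell types was not tested for these genes, since DP and HFSC were counted in different ways, and of these values only that of Krt79 in HFSC passed the test. Within DP, Krt8 had −1.14 in GR KO against Control and 0.94 in ADX against Sham. That difference of −2.08 did not pass the edgeR test (adjusted p = 0.526).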

How the results depend on the processing

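The number of keratins called depended on the tool and the filter. DESeq2 called 2 in GR KO against Control DP, 1 in the DP difference between the effects, 4 in ADX against Sham HFSC, 8 in ADX+CORT against ADX and 5 in GR KO against Control HFSC, where edgeR called 0, 0, 1, 0 and 2. Over all genes, DESeq2 called 1554, 1234, 768, 1278 and 683 in these comparisons, and edgeR 361, 112, 45, 0 and 150. The DP keratin counts are near that background. With no filter on low counts, edgeR called 9 in ADX against Sham DP, 7 in GR KO against Control DP, 8 in the DP difference, 11 in ADX against Sham HFSC, 10 in ADX+CORT against ADX, 6 in ADX+CORT against Sham, 10 in GR KO against Control HFSC and 2 in the HFSC difference, of 54 DP or 51 HFSC keratins. All genes called without the filter numbered 894, 1456, 1305, 888, 1309, 184, 840 and 256 in the same order, of 43030 in DP and 19619 in HFSC. The cause was not tested. Krt35 was called in ADX and in GR KO HFSC, and Krt79 in GR KO HFSC, under DESeq2, median-of-ratios scaling, no filter, keratins left out of the scaling and only the groups compared. Median-of-ratios scaling put the median of all genes in the DP difference at −0.06 in log2, in place of 0.11, and moved it by under 0.1 elsewhere.

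Replicate numbers showed no pairing in HFSC, where same-numbered deviations correlated at −0.122 to 0.091. In DP they correlated at −0.186 to 0.29, with 2 of 6 pairs of groups over 0.1. The highest was Control with GR KO, so a pairing by number in DP is not settled by these values. With the number as a replicate block, Krt35 no longer passed the edgeR test in ADX against Sham HFSC (adjusted p = 0.0693). Krt79 was the keratin called in GR KO against Control DP.

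Leaving out 1 library at a time changed the number of keratins called in GR KO against Control DP and in the DP difference. The same held for ADX against Sham HFSC, ADX+CORT against ADX, GR KO against Control HFSC and the HFSC difference. Such fits leave 1 library in a group, so these numbers are not read as a result. Reversals came only from leaving out a library. In ADX against Sham HFSC, log2 differences ran from −0.89 (without ADX replicate 1) to 4.24 for Krt25 and from −0.23 (the same library left out) to 2.69 for Krt71. In ADX+CORT against ADX they ran from −4.49 to 0.65 (without ADX replicate 1) for Krt25, from −10.11 to 0.0 (without ADX replicate 1) for Krt73 and from −2.85 to 0.51 (without ADX replicate 2) for Krt42. In ADX+CORT against Sham, Krt33a ran from 0.0 (without ADX+CORT replicate 2) to 9.36. Keratins with few counts, such as Krt33a and Krt83, are limited by depth.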

Other observations

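Krt28, a type I inner root sheath keratin, had 5.82 and 10.6 CPM in GR KO HFSC, against 0.307 and 2.00 CPM in Control HFSC (log2 difference 2.80 ± 1.08, adjusted p = 0.278). Krt42 and Krt222, for which no role is given here, stayed at 14.1 CPM or less in every HFSC library. Krt74 is annotated as a transcribed unitary pseudogene and had 25 counts over all HFSC libraries. Krt26, a type I inner root sheath keratin, had 4.71 and 1.64 CPM in ADX DP, against 0.435 and 1.69 CPM in Sham DP.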
